A study of Mus musculus with 472 samples.

Results

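Neurofilaments are the intermediate filaments of neurons, and 5 genes encode the subunits described here: Nefl (light), Nefm (medium), Nefh (heavy), Ina (alpha-internexin) and Prph (peripherin). The 5 genes were taken by name from a table of 55450 genes measured in 472 single retinal ganglion cells, the neurons whose axons form the optic nerve. Nefl, Nefm and Ina were near-universal in these cells, Nefh was graded, and Prph was found in 21% of cells. Each cell was a separate library from a C57BL/6J mouse retina at 7 to 9 weeks of age, with no treatment and no second group. The cells were patched in a flat-mounted retina and their light responses recorded; the aspirated RNA then went through Smart-seq2, which amplifies full-length transcripts and adds no molecular identifiers. The recordings were not used here. The labels name no animals, and cells are not replicates, so all values are descriptions of 1 group and none was tested.

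The light, medium and heavy subunits co-assemble with alpha-internexin or peripherin into filaments that fill the axon and set its calibre. Nefl forms the core of the polymer, while Nefm and Nefh carry long tails that project from it and hold the repeat lysine-serine-proline, a phosphorylation site. Peripherin is best known from neurons with axons in peripheral nerves, and it also occurs in some central neurons. In the retina, antibodies to non-phosphorylated heavy neurofilament are a common label of alpha ganglion cells, large cells with thick axons.

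The tails differ in sequence, and Nefh is the extreme. In GENCODE release M21 on mm10, the lysine-serine-proline codon triplet was found 51 times in frame in the 1090 codons of Nefh, 4 times in the 848 codons of Nefm, and 0 times in the 543 codons of Nefl, the 501 of Ina and the 475 of Prph. The stretch shown covers codons 517 to 566 of Nefh, in an exon at chr11:4940920-4941069 on the minus strand. It holds 8 of these triplets, which are in capitals, and is read in the gene's sense.
Nefh repeat: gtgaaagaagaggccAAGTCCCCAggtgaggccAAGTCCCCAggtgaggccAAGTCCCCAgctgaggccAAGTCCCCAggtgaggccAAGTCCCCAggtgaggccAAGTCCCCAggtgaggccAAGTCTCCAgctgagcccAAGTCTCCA

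Nefl and Nefm are neighbours whose annotated exons overlap, which bears on how their reads were counted. Nefl (ENSMUSG00000022055) lies on the plus strand of chromosome 14, 68083863 to 68089095. Nefm (ENSMUSG00000022054) lies on the minus strand, 68082590 to 68124846, but its main transcript, Nefm-201, occupies only 68119283 to 68124846 and ends 30.2 kb away from Nefl. A longer transcript, Nefm-202, has its last exon at 68082590 to 68084970, opposite the first exon of Nefl. The exons overlap by 1108 bases, of which 144 are coding in both transcripts. The first 100 of those coding bases, chr14:68084827-68084926, are given on the Nefl strand; none is in capitals.
Nefl and Nefm-202 overlap: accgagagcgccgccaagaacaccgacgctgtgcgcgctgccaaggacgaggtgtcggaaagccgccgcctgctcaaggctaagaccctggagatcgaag

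The deposited estimated counts carry a trace of this overlap. Nefl and Nefm were each not whole in 446 of 472 cells (94.5%), yet their sum was whole, to within 0.011 counts, in 472 of 472 cells. The sum of Nefl and Ina, 2 genes that do not overlap, was whole in 31 cells. Ina (ENSMUSG00000034336; chromosome 19, plus strand, 47014698 to 47025327) showed the same with Nt5c2, an antisense gene that shares 456 exon bases with it: Ina was not whole in 215 of the 466 cells above 0, and the sum of the pair was whole in 472 of 472 cells. Nefh (ENSMUSG00000020396; chromosome 11, minus strand, 4938754 to 4948064) and Prph (ENSMUSG00000023484; chromosome 15, plus strand, 99055174 to 99058978) overlap no other gene's exons and were whole in every cell. The protocol keeps no strand, so reads from the overlapping exons cannot be told apart, and the split of Nefl from Nefm and of Ina from Nt5c2 is uncertain by an amount the table does not give.

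Depth was 58907 to 13004880 gene counts, with a median of 5184793, and library names fall into 5 groups, A with 234 cells, B with 98, C with 62, D with 59 and E with 19. Groups A, D and E were separated by the flow cell in the names, but B and C by order number alone. Levels are counts per 1000000 gene counts (CPM), spike-ins left out, and from 10 CPM upward a cell counts as positive for a gene. All 8 listed markers of ganglion cells were positive in 76.9% to 98.3% of cells, among them Slc17a6, the vesicular glutamate transporter (92.2%), and the RNA-binding protein gene Rbpms (89.8%). Marker genes of other retinal cells were also found. Of the cells, 24.4% had 3 or more of 6 bipolar cell markers and 24.8% had 3 or more of 6 amacrine markers. For rods, 43.4% had 3 or more of 5 markers, and 79.4% had 3 or more of 8 Müller glia markers. The Müller glia markers were uneven, with Clu in 91.1% of cells, Glul in 82.6%, Dkk3 in 78.6% and Apoe in 57.2%. Rlbp1 was in 40.5%, Slc1a3 in 19.1%, Sox9 in 13.1% and Aqp4 in 12.3%, so the 79.4% is no measure of glial RNA alone. Prph2, a photoreceptor disc gene unrelated to Prph despite its symbol, was positive in 46.8% of cells. All retinal cells in the table are labelled as ganglion cells, so no cell type lacking the 5 genes was at hand to set a background share.

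The level of Nefl, the core subunit, ran from 0.991 CPM through a median of 2935 CPM to 10806 CPM, and 98.5% of cells were positive (95% exact interval 97.0% to 99.4%). Nefm, the medium subunit, ran from 0.365 CPM through a median of 1133 CPM to 4791 CPM, with 96.6% of cells positive (94.6% to 98.1%). Ina, which assembles with the neurofilament triplet in central neurons, ran from 0 through a median of 351 CPM to 4708 CPM, with 93.6% positive (91.1% to 95.7%). These 3 genes were thus detected in nearly every cell. Their full ranges covered several orders of magnitude, but the quartiles lay closer. They were 1655 and 4371 CPM for Nefl, 585 and 1822 CPM for Nefm, and 168 and 660 CPM for Ina. Nefh ran from 0 through a median of 96.4 CPM to 1625 CPM, with 78.2% positive (74.2% to 81.8%), and 30 cells were at 0. Prph ran from 0, which was also its median, to 1500 CPM, with 21% positive (17.4% to 24.9%). Prph was close to all-or-none: 280 cells were at 0, 81 were above 0 but under 1 CPM, 12 lay from 1 to under 10 CPM, and the 99 positive cells had a median of 77.4 CPM. All intervals are Clopper-Pearson intervals and cover counting error alone, so they do not cover the spread from mouse to mouse.

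**Figure D1:**
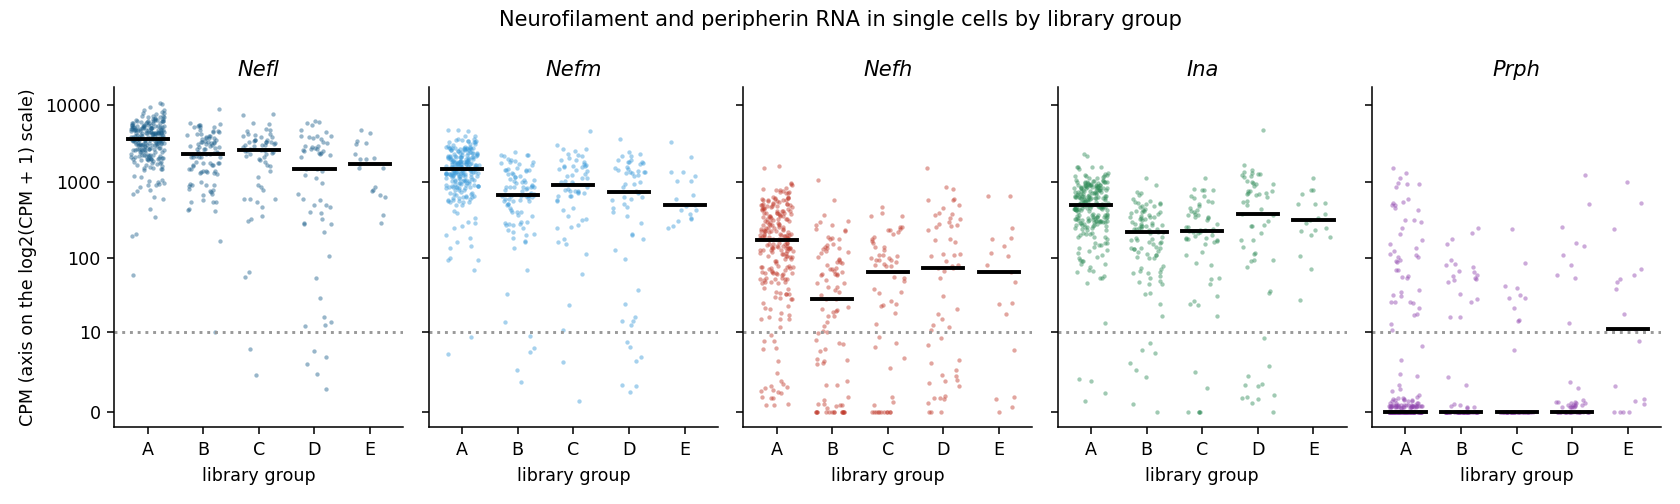
Level of each gene (CPM, axis on the log2(CPM + 1) scale) in every cell, by library group; each point is a cell, the black bar is the group's median and the dotted line is 10 CPM. Nefl and Nefm sit highest in every library group, Nefh reaches from 0 to 1625 CPM, and Prph splits into many cells at or near 0 and 99 positive cells.

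Per length of transcript, Nefl was the leading subunit. Dividing each gene's CPM by its transcript length, with Nefm-201 for Nefm, Nefl made up a median of 61.4% of the 5-gene level per kb (quartiles 52.9% and 68.5%) and was the highest of the 5 in 427 cells. Nefm made up a median of 24.3%, Ina 8.49%, Nefh 1.96% and Prph 0. Among all 55450 genes ranked by median CPM per kb of exon, Nefl stood at rank 13, Nefm at 88, Ina at 174 and Nefh at 1051. With the length of Nefm-201 alone, Nefm stood at rank 47. Together the 5 genes held a median of 4767 CPM, or 0.477% of a cell's gene counts, with quartiles of 0.277% and 0.701%.

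Most cells carried the same set. The 4 genes Nefl, Nefm, Nefh and Ina without Prph were positive together in 267 cells, all 5 in 88 cells, and Nefl, Nefm and Ina without Nefh and Prph in 67 cells. The 7 cells negative for Nefl came from library groups C (2) and D (5), and 3 of them had under 1000 positive genes, where the median cell of the series had 5555. Cells positive for 4 of the genes had a median of 5816 positive genes, those positive for 3 had 4361, and those positive for 2 had 1949. The number of members found therefore moved with the number of genes found, whose part in the result was not tested.

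Levels differed between library groups. The median summed level was 6102 CPM for library group A, 3671 CPM for library group B, 3819 CPM for library group C, 3274 CPM for library group D and 2844 CPM for library group E. For Nefh the group medians of level were 175 CPM for A, 28.8 for B, 67.1 for C, 74.5 for D and 66.3 for E, and the positive share was 90.6% in A and 61.2% to 73.7% in the other groups. Prph was positive in 52.6% of the 19 cells of library group E and in 16.1% to 21.4% of those of library groups A to D. The exact interval of the library group E share was 28.9% to 75.6%. A pair of ribosomal RNA loci took a median of 17.1% of counts, and over the 472 cells the summed level had a Spearman rho of -0.41 with their share (-0.58 to -0.20 within library groups), 0.29 with the number of positive genes and -0.15 with the spike-in share. Library group, cell quality and cell class were not assigned independently, and their parts in these levels were not tested.

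Across cells, the members were related to different degrees. Spearman rho of CPM over 472 cells was 0.73 for Nefl and Nefm, with 0.56 to 0.80 within the 5 library groups. Both values of a cell come from 1 library with 1 total, and the split counts described above join these 2 genes further, so rho is a description only. Nefm and Nefh had a rho of 0.54 (0.11 to 0.55 within library groups), Nefl and Nefh 0.49 (0.23 to 0.50), Nefl and Ina 0.47 (0.33 to 0.62), Nefm and Ina 0.43 (0.24 to 0.55), and Nefh and Ina 0.40 (0.21 to 0.44). Prph had a rho of 0.07 to 0.18 with the other 4 genes. Among 11144 other genes positive in 10% or more of cells, 0 had a higher rho with Nefl than Nefm did, and 0 a higher rho with Nefm than Nefl did, against 95th percentiles of 0.34 and 0.30.

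Discordant cells were few for Nefl and Nefm and more common for Nefh. Of the 388 cells with 1000 CPM or more of Nefl, 7 had under 100 CPM of Nefm, while 64 had under 10 CPM of Nefh. Of those 64 cells, 2 were positive for both Spp1 and Kcng4, the alpha cell markers used below, and of all 388 cells 98 were. Library quality and name group moved with this contrast: the 64 cells had a median of 4454 positive genes, against 5760 in the 388, and 29 of the 64 were in library group B and 16 in A, against 78 and 218 of the 388. Their part was not tested. In the other direction, 6 cells had 100 CPM or more of Nefm with under 100 CPM of Nefl, 4 of them in library group D, and their median of positive genes was 2772.

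**Figure D2:**
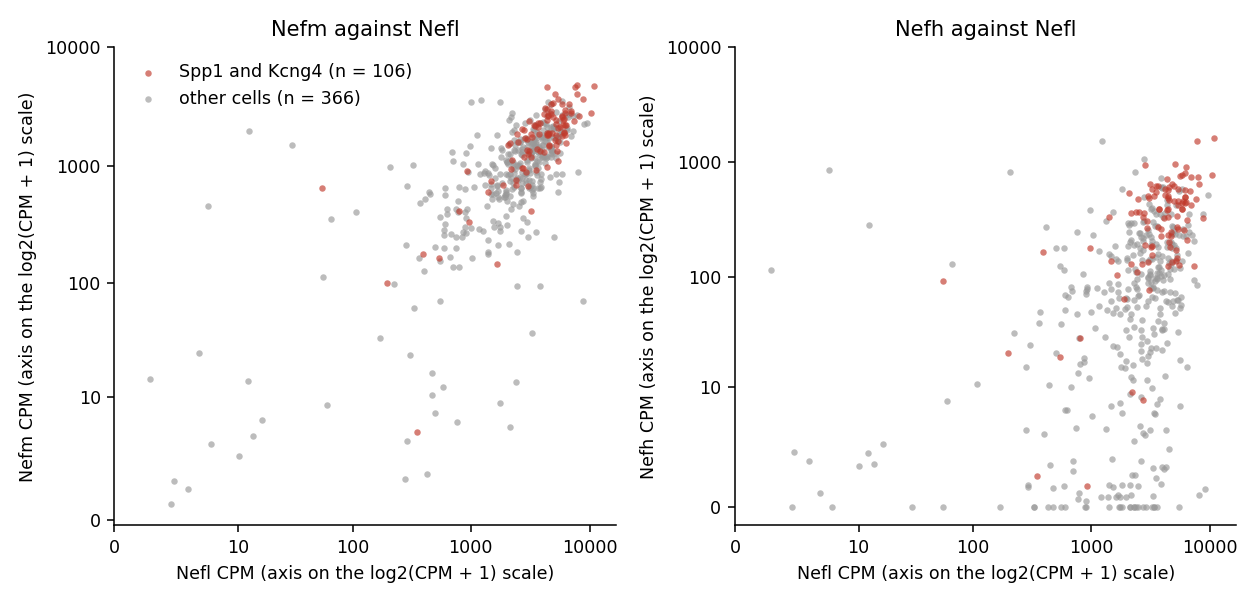
Nefm (left) and Nefh (right) against Nefl, in CPM on the log2(CPM + 1) scale; each point is a cell, red for the 106 cells positive for Spp1 and Kcng4 and grey for the 366 other cells. Nefm follows Nefl over the whole range (rho 0.73), whereas Nefh spreads from 0 to 1625 CPM at high Nefl and red points lie in the upper part of that spread.

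The genes whose levels were most like each member differed between members. For Nefl these were Cplx1, a complexin of the release machinery (rho 0.71), Ndrg4 (0.70), the lactate dehydrogenase gene Ldhb (0.68), Sult4a1 (0.67) and the SNARE gene Snap25 (0.67). For Nefm they were Ldhb (0.62), Cend1 (0.61), Cplx1 (0.60), Ndrg4 (0.59) and the neuronal tubulin Tubb3 (0.58). Nefh was most like Scn4b, a sodium channel beta subunit (0.50), Spp1, which encodes osteopontin (0.50), Ldhb (0.48), the potassium channel subunit gene Kcng4 (0.47) and the aldolase gene Aldoc (0.46). Ina was most like Gnas (0.57), Ywhah (0.56), Pdxp (0.52), Cplx1 (0.47) and Ccdc92 (0.47). For Prph the highest values among the genes searched were lower, at 0.34 for Prkcq, 0.30 for Crip2, 0.28 for Ctxn3, 0.28 for Ndnf and 0.26 for Irx5. For every member, only genes positive in at least 10% of cells were searched. Il1rapl2, a marker used below, was positive in too few cells to be searched, and its rho with Prph was 0.32. The values are over the same 472 cells and libraries, and within single library groups they spread widely, for Nefh and Spp1 from -0.01 to 0.57. The lowest values for Nefl, Nefm and Ina, -0.33 to -0.39, belonged to the ribosomal RNA loci CT010467.1 and AY036118. Camkv (-0.24) and Scn3b (-0.23) were lowest for Nefh, and Hddc3 and Dcc (both -0.13) for Prph.

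Beyond its level, Prph stood apart in its spread. Genes positive in 10% or more of cells were put in 20 bins of mean log2(CPM + 1), and the SD of Prph, 2.78, was rank 1 of the 558 genes in its bin, whose median SD was 2.32. Nefh had an SD of 2.90 against a bin median of 2.72 (rank 155 of 557). The SD of Nefl was 1.84, that of Nefm 2.0 and that of Ina 2.22, all under the bin median of 2.35.

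Of 13 other intermediate filament genes, 1 was positive in at least 50% of cells, a share close to the 7.76% of all 55450 genes: Lmna, the lamin A and C gene of the nuclear envelope, at 54.2%. Vim, the vimentin gene, was positive in 27.1% of cells, Synm in 17.6%, Gfap in 15.3%, the keratin gene Krt18 in 14.8%, Nes in 1.48% and the muscle gene Des in 0.212%. Vim, which Müller glia express, had a rho of 0.49 over 472 cells with the summed level of Rlbp1, Slc1a3, Aqp4 and Sox9. Vim also had a rho of 0.41 with the summed level of the rod genes Gnat1 and Sag. Nefl had -0.22 with the sum of those Müller genes, -0.21 with the rod sum and -0.08 with the sum of all 8 Müller glia markers. The part of glial or rod RNA in the vimentin value was not tested.

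Genes that move, link, modify or turn over neurofilaments were mostly positive. All 7 transport motor genes passed 50% of cells, from 80.3% for the kinesin light chain gene Klc2 to 95.1% for Klc1, with the axonal kinesin heavy chain gene Kif5a at 91.3%. All 3 linker genes did so, with Dst at 90.9%, Macf1 at 88.1% and Plec at 72.2%. Of 6 kinase genes, 4 passed, with Gsk3b at 96.6% and Cdk5 at 80.5%, while Mapk3 was at 30.7% and the Cdk5 activator Cdk5r2 at 14.2%. The turnover and RNA-binding genes Stub1 (88.3%), Trim2 (85.6%) and Tardbp (68.6%) passed as well. In all, 17 of the 19 such genes reported here were positive in 50% of cells or more, against 7.76% of all 55450 genes and 38.6% of the genes positive in at least 10% of cells.

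Ganglion cell classes were set by marker genes at 10 CPM, and each was set against all other cells. There were 13 such classes of 31 to 115 cells. The classes overlap: 286 cells fell in 2 or more, 134 in 1 and 52 in none. By Nefl level, cells with Spp1, Kcng4 and Fes came first, with a median of 4467 CPM, and cells without Pou4f1 came last, with 1675 CPM. Nefm had the same classes at both ends, with medians of 2184 CPM and 620 CPM. Ina was highest in cells with Irx3 and no Eomes, with a median of 595 CPM, and lowest in cells without Pou4f1, with 207 CPM. For Nefh, cells with Spp1 and Kcng4 came first with a median of 365 CPM, followed by its subsets with Opn4 or Il1rapl2 (325 CPM) and with Fes (313 CPM) and by cells with the T-box gene Tbr1 (227 CPM), of which 39 of 79 also had Spp1 and Kcng4. Cells with Foxp2, or with Foxp1 and Irx4, came last for Nefh with 58.7 CPM. The quartile ranges of neighbours in each order overlapped. The first and the last class did not overlap in their quartiles for Nefh (181 to 532 CPM, against 19.2 to 126 CPM) or for Nefm (1685 to 2650 CPM, against 137 to 1295 CPM), and they did for Nefl and Ina.

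**Figure D3:**
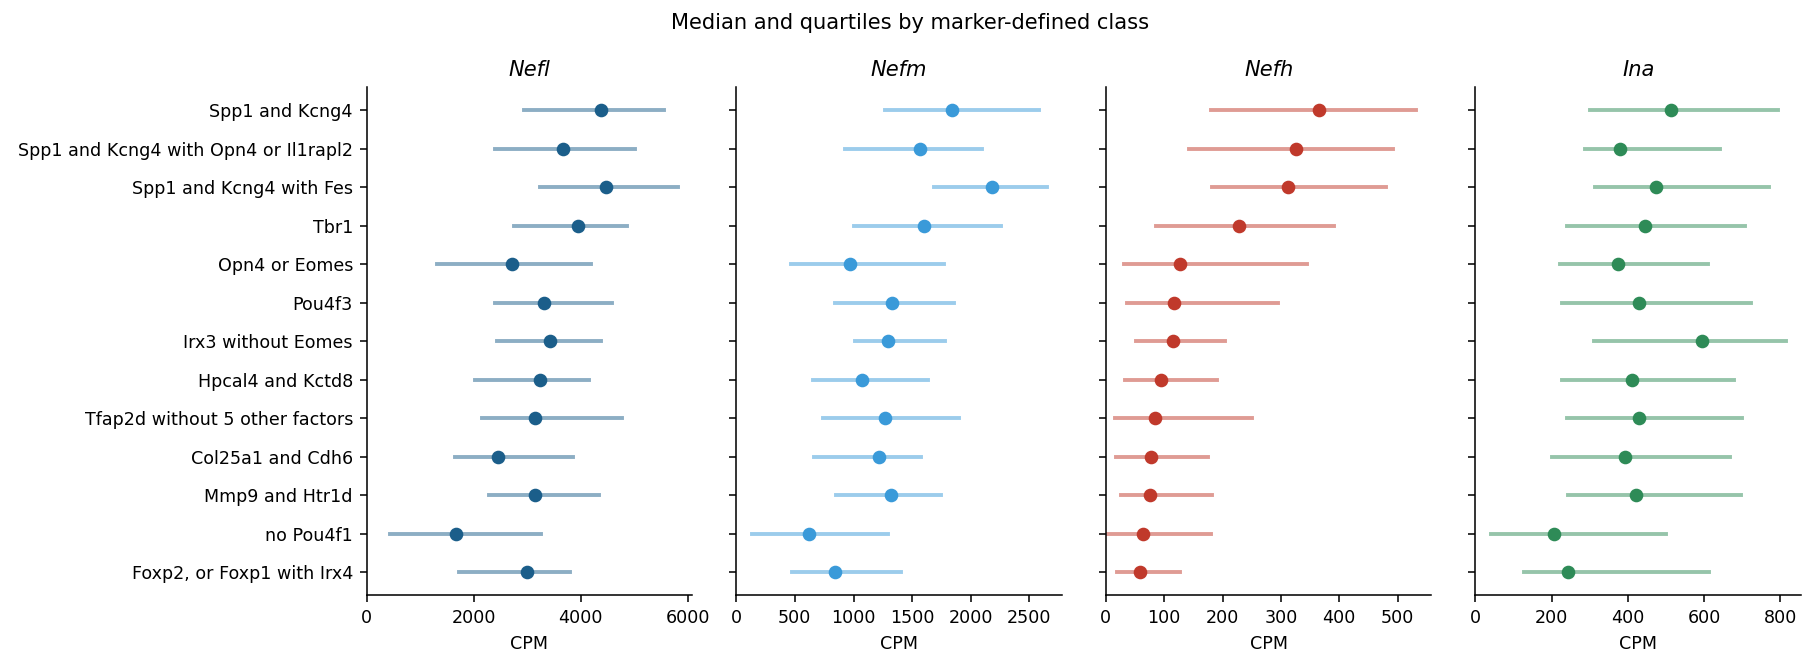
Median (dot) and quartiles (line) of the CPM of Nefl, Nefm, Nefh and Ina in 13 marker-defined classes, ordered by the Nefh median; "Tfap2d without 5 other factors" means Tfap2d without Eomes, Foxp2, Tbr1, Neurod2 and Irx3. The Nefh median is 365 CPM in cells with Spp1 and Kcng4 and 58.7 CPM in cells with Foxp2, or Foxp1 with Irx4, while the Ina medians lie between 207 and 595 CPM.

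Cells with Spp1 and Kcng4, a marker pair of alpha ganglion cells, had more Nefh RNA than other cells. The class held 106 cells, 82 of them in library group A. Nefh ran from 0.515 CPM through a median of 365 CPM to 1625 CPM in the class, and from 0 through a median of 64.3 CPM to 1526 CPM in the other cells. The ranges overlapped, but the quartiles did not, at 181 to 532 CPM in the class and 6.89 to 160 CPM in the other cells. Nefh was positive in 96.2% of the class (90.6% to 98.96%) and in 73.0% of the other 366 cells (68.1% to 77.4%). The mean was 395 CPM in the class and 118 CPM in the other cells, a ratio of 3.34. Of the 5 members, Nefh and Prph (ratio 3.93) passed 2-fold here, against 2.0% of 11147 genes.

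The difference in Nefh was present within library groups. In library group A the mean was 421 CPM in the class and 153 CPM in the other cells, a ratio of 2.75, and over the 3 library groups with 5 or more class cells the ratio was 2.27 to 2.75. Library groups B to E pooled, with 24 class cells, gave 3.27, a value that also takes in differences between those groups. Thinned to 1000000 counts per cell, the positive shares were 96.2% and 73.3%. Class cells had a median of 6463 positive genes, against 5365 in the other cells, and an astrocyte marker sum with a median of 33.1 CPM, against 1.33 CPM. In the class that sum ran from 0 to 431 CPM, against 0 to 5895 CPM in the other cells, over 5 genes of which Gfap, Pax2, Aldh1l1 and Pdgfra were at 0 in most class cells; its part in the Nefh value was not tested.

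The other neurofilament genes differed less. The mean of Nefl was 4298 CPM in the class and 2719 CPM in the other cells, a ratio of 1.58. That of Nefm was 1945 CPM in the class and 1068 CPM in the other cells, a ratio of 1.82, and that of Ina was 587 CPM in the class and 421 CPM in the other cells, a ratio of 1.40. Over the 3 library groups with 5 or more class cells, the ratio was 1.315 to 2.13 for Nefl and 1.47 to 1.82 for Nefm. For Ina it was 1.08 to 1.25, so the pooled Ina ratio lay above that of each of these groups. In library group A, with 82 of the class cells, the ratios were 1.315 for Nefl, 1.52 for Nefm and 1.08 for Ina. The median over 11147 genes, all library groups pooled, was 1.01. With median-of-ratios size factors in place of CPM and the same classes, the ratios of means were 0.80 for Nefl, 1.35 for Nefm, 1.16 for Nefh and 0.22 for Ina, so the direction turned for Nefl and Ina, with the median gene at 0.75. Under that scaling 2 cells of library group D outside the class, with 547 and 725 positive genes, were scaled up 256 and 44.1 times relative to the median cell. Such cells move medians little. Under the same factors the ratios of medians were 1.39 for Nefl, 1.74 for Nefm, 4.64 for Nefh and 1.36 for Ina. The value of 0.75 for the median gene is from ratios of means, and no ratio of medians was taken over all genes.

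Within the 5-gene level per kb, Nefh had a larger part in these cells. It made up a median of 4.13% in the class (quartiles 2.67% and 5.79%) and of 1.36% in the other cells (0.310% and 3.36%), and in library group A alone 4.28% and 1.74%. The part of Nefl was 58.4% in the class and 62.3% in the other cells, that of Nefm 25.2% and 23.8%, and that of Ina 7.56% and 9.06%. These shares depend on no scaling between cells, since each is a ratio within 1 cell.

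**Figure D4:**
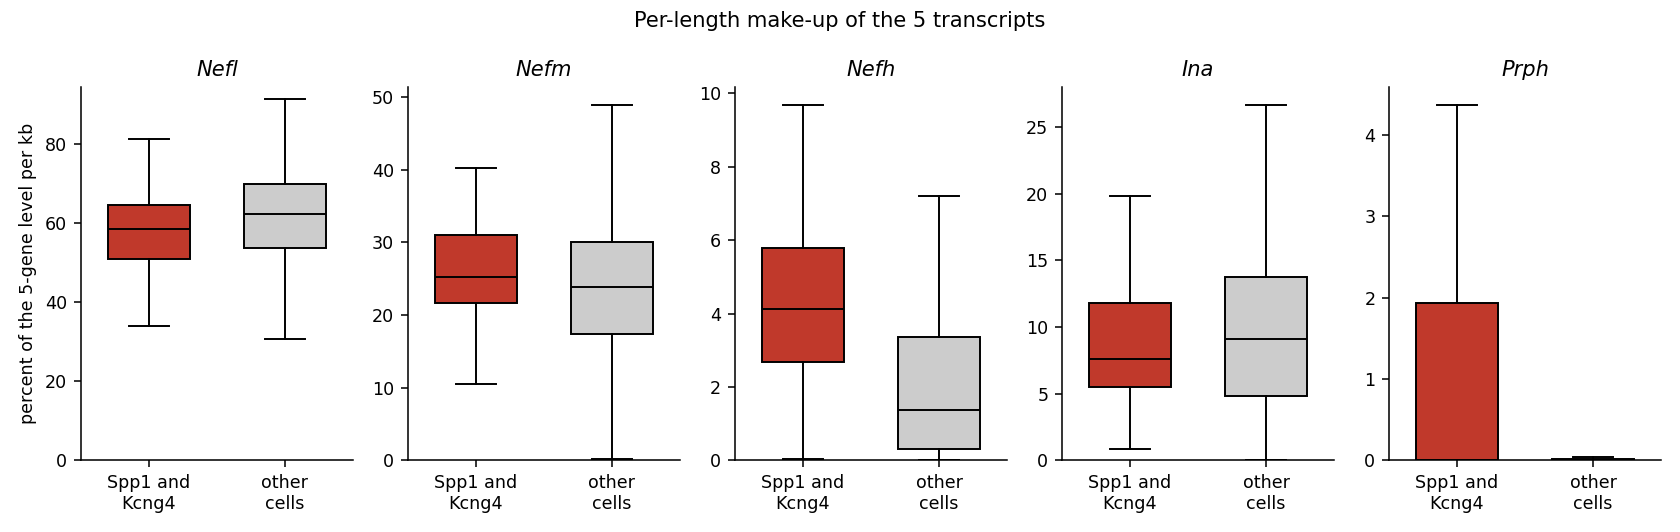
Part of each gene in the 5-gene level per kb (percent), in the 106 cells with Spp1 and Kcng4 (red, left) and the 366 other cells (grey, right); boxes give the median and quartiles, whiskers reach the last value within 1.5 times the box, points beyond are not drawn, and the axes differ in scale. The Nefh median is 4.13% in the red box and 1.36% in the grey one, and the boxes overlap for all 5 genes.

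Prph followed another marker. Opn4 encodes melanopsin, the photopigment of intrinsically photosensitive ganglion cells, and Eomes is a transcription factor of the same cells. In the 75 cells with Opn4 or Eomes, Prph ran from 0 through a median of 26.0 CPM to 1500 CPM and was positive in 41 cells, or 54.7% (42.7% to 66.2%), while in the other 397 cells it was positive in 58, or 14.6% (11.3% to 18.5%). The mean was 197 CPM in the class and 17.2 CPM in the other cells, a ratio of 11.4. Prph was the only member past 2-fold in this class, where 1.96% of 11148 genes were. Nefl (0.96), Nefm (0.92) and Ina (0.98) had ratios near that of the median gene, 0.99. Nefh was at 1.29, with medians of 128 CPM in the class and 89.8 CPM in the other cells. Its ratio was 1.34 in library group A and ran from 0.85 to 2.36 over 4 library groups.

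In library group A, 62.5% of the class and 13.9% of the other cells were Prph-positive, and in library groups B to E together 48.8% (21 of 43) and 15.4% (30 of 195). The ratio of means varied from 2.27 to 35.95 over 4 library groups. Thinned to equal depth, the positive shares were 55.4% and 15.1%. Rod markers had a median sum of 396 CPM in the class and 185 CPM in the other cells (ranges 0.327 to 13614 CPM and 0 to 38068 CPM), and amacrine markers 123 CPM and 54.2 CPM (0 to 2610 CPM and 0 to 2836 CPM). Horizontal cell markers had 162 CPM in the class and 72.4 CPM in the other cells (0 to 3966 CPM and 0 to 3608 CPM), and astrocyte markers 24.3 CPM and 1.72 CPM (0 to 402 CPM and 0 to 5895 CPM), with 4 of the 5 astrocyte genes at 0 in most class cells. Over all cells Prph had a rho of 0.16 with the rod sum, 0.15 with the amacrine sum, 0.23 with the horizontal sum and 0.26 with the astrocyte sum. Of the horizontal genes, Calb1 had 0.245 with Prph and the others 0.04 to 0.115. Of the astrocyte genes, S100b had 0.25 and the others -0.008 to 0.12. The last 2 sums thus mostly followed 1 gene each. The part of these sums in the result was not tested.

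Splitting the class further, Prph was positive in 11 of 18 cells with both Opn4 and Eomes (61.1%), in 18 of 34 with Opn4 alone (52.9%) and in 12 of 23 with Eomes alone (52.2%). The exact intervals of the 3 shares overlap widely. Mean levels differed more, at 394 CPM for both genes, 175 CPM for Opn4 alone and 74.0 CPM for Eomes alone. In the 397 cells with neither gene the mean was 17.2 CPM. The ratio over all other cells was 12.3 for both genes, 4.92 for Opn4 alone and 1.67 for Eomes alone. The other cells of each ratio take in the remaining subsets, with means of 31.9, 35.7 and 44.3 CPM in that order. These ratios therefore do not share a base. Over single library groups the ratio to all other cells ran from 3.90 to 5.86 for Opn4 alone and from 1.56 to 3.23 for Eomes alone. Of the cells with both genes, 100% of the 6 in library group A were positive and 5 of the 12 others, and the ratio of means ran from 0.76 to 16.7 over single library groups. These subsets, and those below, were chosen after the values were seen.

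The alpha and the melanopsin markers were then crossed. Among cells with Spp1 and Kcng4, Prph was positive in 24 of 28 with Opn4 or Eomes (85.7%, interval 67.3% to 96.0%) and in 11 of 78 without (14.1%, 7.26% to 23.8%). The mean was 324 CPM in the first set and 30.9 CPM in the second, a ratio of 10.5, and the median 128 CPM against 0. Prph was the only member past 2-fold between them, where 6.06% of 11146 genes were. The other 4 genes were at ratios of 0.78 (Nefm) to 0.91 (Nefh). Alpha cells that carry melanopsin are known as the M4 type of photosensitive cell.

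Nefh followed the alpha markers instead. Its median was 333 CPM in the 28 cells with both kinds of marker and 390 CPM in the 78 cells with Spp1 and Kcng4 alone, but 38.5 CPM in the 47 cells with Opn4 or Eomes alone and 65.7 CPM in the 319 cells with neither. Prph, by contrast, was positive in 36.2% of the 47 cells with Opn4 or Eomes alone (22.7% to 51.5%) and in 14.7% of the 319 cells with neither (11.03% to 19.1%). Within library group A the Prph shares were 84.2%, 14.3%, 30.8% and 13.7% in the same order, and the Nefh medians 392.2, 394, 155 and 106 CPM. In library group A, therefore, the Nefh median of the cells with Opn4 or Eomes alone was above that of cells with neither, while over all library groups it was below.

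**Figure D5:**
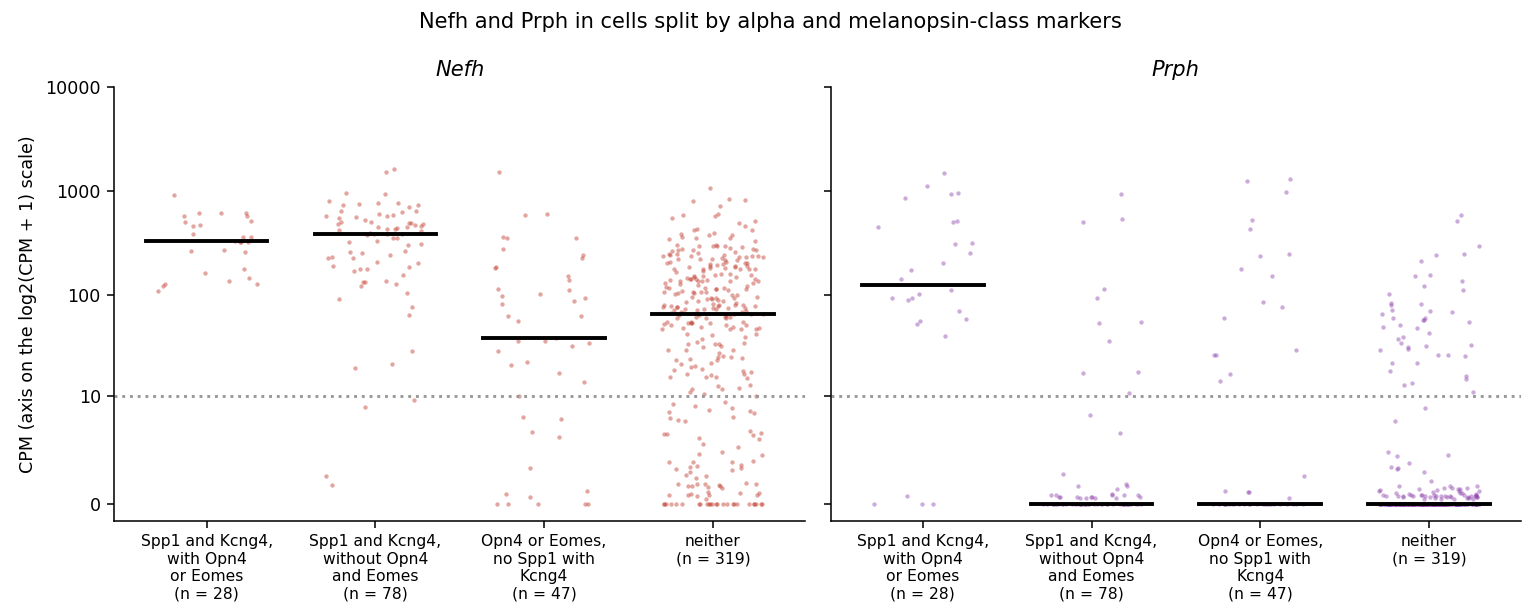
Nefh (left) and Prph (right) in 4 sets of cells split by alpha markers (Spp1 and Kcng4) and melanopsin-class markers (Opn4 or Eomes), in CPM on the log2(CPM + 1) scale; points are cells, black bars medians, and the dotted line is 10 CPM. Nefh is high in both sets with Spp1 and Kcng4 (medians 333 and 390 CPM), whereas Prph has a median of 128 CPM in the first set and 0 in the other 3.

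Il1rapl2 and Fes are also used as markers of alpha cell subsets. Cells with Spp1 and Kcng4 and with Opn4 or Il1rapl2 numbered 31, of which 25 had Opn4 or Eomes and so were in the split above, and Prph was positive in 74.2% of them (55.4% to 88.1%) and in 17.2% of the other 441 cells, with means of 289 CPM and 28.6 CPM and a ratio of 10.1. Nefh (ratio 2.02) also passed 2-fold in that class, against 2.84% of 11146 genes. Of its 7 cells with Il1rapl2 but no Opn4, 3 were positive for Prph. In the 37 cells with Spp1, Kcng4 and Fes, 24.3% were positive for Prph. The set with Spp1 and Kcng4 but without Opn4 and Il1rapl2 (75 cells) had 16.0% of cells positive for Prph and a Nefh ratio of 3.08 over the other cells.

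Seen from the other side, the Prph-positive cells included cells with and without these markers. Of the 99 Prph-positive cells, 29.3% had Opn4, 23.2% had Eomes and 22.2% had Il1rapl2, against 6.17%, 4.83% and 4.02% of the 373 Prph-negative cells. At least 1 of the 3 genes was positive in 47 of the 99 Prph-positive cells and 48 of the 373 Prph-negative ones. Of the 10 cells with the most Prph, 598.7 to 1500 CPM, 8 had Opn4 or Eomes. Slc17a6 was positive in 99 of the 99 Prph-positive cells and Pou4f1 in 81.8%, against 90.1% and 81.5% of the Prph-negative cells.

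Prph had lower means in 3 classes. In the 75 cells with Tfap2d but without Eomes, Foxp2, Tbr1, Neurod2 and Irx3 the Prph mean was 10.4 CPM, against 52.4 CPM in the other cells, a ratio of 0.20, where 4.35% of genes were at 0.5 or less. In the 115 cells with Pou4f3 it was 18.6 CPM, against 54.5 CPM, a ratio of 0.34 (1.59% of genes), though the ratio ran from 0.14 to 1.44 over single library groups, and outside library group A 26.9% of class cells and 19.9% of the others were positive. In the 50 cells with Col25a1 and Cdh6, markers of ON-OFF direction-selective cells, it was 21.9 CPM, against 48.6 CPM, a ratio of 0.45 (3.90% of genes). In each of these 3 classes Prph was the only member at 0.5 or less. The positive shares differed less: 13.3% and 22.4% with the Tfap2d rule, 20.9% and 21.01% with Pou4f3, and 20% and 21.1% with Col25a1 and Cdh6, with overlapping exact intervals in all 3.

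Cells without Pou4f1, a homeobox factor of most ganglion cells, had less Nefl and Nefm by CPM. Nefl was positive in 80 of 87 such cells (92.0%, 84.1% to 96.7%) and in 385 of the other 385 cells (99.05% to 100%), so all 7 Nefl-negative cells lacked Pou4f1. Nefl averaged 2032 CPM in cells without Pou4f1 and 3308 CPM in the others, a ratio of 0.61, but the median gene was also at 0.82. The Nefl medians were 1675 and 3106 CPM. With size factors the ratio of means was 2.93 for Nefl, 5.27 for Nefh and 5.24 for Ina, with the median gene at 1.33. Means under these factors can rest on the few cells scaled up most, and medians under them were not taken for this class. These cells had a median of 4137 positive genes, against 5773 in the others, and 24 of them were in library group D. Within library group A the ratio was 0.83 and all cells of both sets were positive for Nefl. The part of RNA quality in this difference was not tested.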

How the data were processed

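The deposited table holds the authors' estimated counts for each gene and cell. The submitters' processing notes name STAR 2.7.0 and mm10; how reads were assigned to genes, and with which annotation, was not given in the sources used here. The values need not be whole (1.36% were not) and were rounded first. Rows were matched to the 472 cells through the deposited name key, with 0 left over. Counts were scaled to CPM without the 92 ERCC spike-ins. Depth ran from 58907 to 13004880 gene counts per cell.

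The members and lists were chosen with earlier results of these data known. The text may name the 5 members, the genes of the listed marker and partner lists, Prph2, and for each member the 5 genes of highest and 2 of lowest Spearman rho among genes positive in at least 10% of cells; Nt5c2 and the ribosomal RNA loci were named after the values were seen. A listed partner gene is not reported here. Library groups were read from library names, by flow cell in A, D and E and by order number in B and C. Classes were set by markers at 10 CPM, and a fold is a ratio of mean CPM. Cells were picked by pipette, so no doublet caller was used, and the marker genes of other retinal cell types were counted. With 1 group and no animals named, no test was made between cells, and the pairing of replicates does not arise. Coordinates are 1-based from GENCODE M21 (mm10), and the printed bases were read from the transcript sequences of that release. Ratios and ranks were tested on simulated data. Software was matplotlib 3.10.9, pandas 2.3.3, scipy 1.17.1 and numpy 2.4.6 under Python 3.11.15.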

Additional observations from a re-analysis of the deposited data

How the results depend on the processing

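Alternatives changed the scaling, the depth, the threshold, the cells kept or the library group left out. Of 122 values, 95 stayed within the yardstick. A change of direction was defined only for the 12 values of the rho of Nefl and Nefm and the 16 of the Nefh ratio. Among these, 0 reversed. The Nefl and Ina ratios that turned with size factors were not among the 122. The yardsticks were the exact 95% interval for a share, an order-statistic interval of the median for the summed level, the range over library groups for the correlation, and 1.5 times for the ratio. All 12 alternatives for the rho of Nefl and Nefm (0.58 to 0.75) and all 12 for the Prph share of cells with Opn4 or Eomes (44.0% to 60.4%) stayed within theirs. Positive shares moved with the threshold: at 1 CPM they were 99.8% for Nefl, 99.6% for Nefm, 87.5% for Nefh and 97.0% for Ina, and at 100 CPM 96.4%, 93.2%, 49.4% and 83.3%, with 8.69% for Prph and 6.49% for Prph in cells without Opn4 and Eomes. In cells with at least 3000 positive genes, Nefm reached 98.7%, Nefh 82.96% and Ina 97.2%, and with size factors Nefm reached 98.7% and Ina 95.8%. Without library group A the shares were 94.1% for Nefm, 66.0% for Nefh and 89.1% for Ina; without library group B, Nefh was at 82.6%, and without library group D, Nefl at 99.5%. Without the 154 cells with 3 or more bipolar or amacrine markers, Prph was at 16.7%. The median summed level was 6133 CPM with the ribosomal RNA loci left out of the total, 3596 CPM without library group A and 5230 CPM without library group B. The Nefh ratio of cells with Spp1 and Kcng4 over other cells (3.34) was 5.68 as a ratio of medians and 6.61 with size factors when the class was redrawn on those values. With size factors and the class from CPM it was 1.16, and 3.19 when only cells with at least 3000 positive genes were kept; the cells of few genes that were scaled up most are the ones left out there. The last 2 settings, the library group A value and all settings for the Prph shares by class were chosen after seeing the data. No paired analysis was possible because there is 1 group. Animals are not named, so no value shows how far cells of different mice differ, and a gene at 0 in a cell may have been missed by amplification.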

Other observations

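The mean Nefl ratio of cells with Tbr1 over other cells was 1.35 in CPM and 0.73 with size factors. Their Nefh ratio was 1.56 and 0.68, while the median gene was at 1.02 and 0.73. The CPM medians were 3954 in the class and 2693 in the other cells for Nefl, and 227 and 79.9 for Nefh. Means with size factors can rest on the few cells scaled up most, and medians under them were not taken for this class. The mean Prph ratio of cells with Opn4 or Eomes was 11.4 in CPM and 11.8 with size factors.

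Prph was positive in 28.8% of cells with Irx3 and no Eomes, with a mean ratio of 1.86 over the other cells, 2.22 in library group A and a lowest library group at 0.70. In library group E, 10 of 19 cells were positive for Prph, and 3 of those 19 cells had Opn4 or Eomes.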
